A study of Drosophila melanogaster with 24 samples.

Results

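The 9 forkhead transcription factor genes *jumu*, *CHES-1-like*, *bin*, *croc*, *fkh*, *slp1*, *slp2*, *foxo* and *fd59A* were taken by symbol from a table of 17476 genes, and all 9 were found. RNA-seq counts were analysed for mesodermal cells sorted by their GFP fluorescence from *Drosophila* embryos of stage 11 to early stage 12 kept at 25 °C, with 4 biological replicates of each of 6 genotypes. All 6 genotypes carried *twi-GAL4* and *UAS-2EGFP*, which mark cells that express or have expressed *twist*, the sorted mesodermal cells. Double loss-of-function embryos carried *Df(1)CHES-1-like1* and were homozygous for *Df(3R)Exel6157*, with the driver on one copy of that chromosome and the reporter on the other. *jumu* loss-of-function embryos were homozygous for *Df(3R)Exel6157* alone, with driver and reporter placed likewise. *CHES-1-like* loss-of-function embryos carried *Df(1)CHES-1-like1*, with 1 chromosome holding *twi-GAL4* and *UAS-2EGFP*. In *jumu* overexpression that chromosome was opposite *UAS-jumu*, in *CHES-1-like* overexpression it was opposite *UAS-CHES-1-like*, and in wild-type it was opposite a plain chromosome. Both losses are deficiencies, which can remove more than a single gene, and both overexpressed genes were driven by *twi-GAL4*, whose activity follows the *twist* promoter. The sample descriptions place the embryos of both overexpression genotypes at late stage 11 to early stage 12, so a small difference in age from the other genotypes cannot be told apart from the transgenes.

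Forkhead (Fox) proteins bind DNA through a winged-helix domain and act as activators or repressors of transcription. In the fly embryo, members of the family pattern the segments, specify the gut and salivary glands, divide the mesoderm into heart, visceral and body wall muscle, and link insulin signalling to growth. *jumu* and *CHES-1-like* are the pair that acts in the specification and division of cardiac progenitors, and the 6 genotypes ask how the mesoderm responds to less or more of each.

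Total counts per sample ranged from 15197022 to 72519855. The 8 mesodermal marker genes (*twi*, *Mef2*, *tin*, *bap*, *htl*, *zfh1*, *lmd* and *how*) were detected in every genotype, at a summed level of 1361 to 1959 CPM, the counts scaled to a common library size. Markers of other cell types were also present, since no gene on those lists was at 0 throughout a genotype, with summed levels of 246 to 519 CPM for 7 neural genes and 472 to 1105 CPM for 5 hemocyte genes. In these bulk samples, fewer cells of a type and less RNA per cell cannot be told apart. Whether the cells behind these other markers had themselves expressed *twist* was not tested, so the sums do not measure wrongly sorted cells. Double loss-of-function replicate 2, *CHES-1-like* overexpression replicate 1 and *jumu* overexpression replicate 1 stood apart from the other replicates of their genotypes, with median absolute log2 differences of 0.36, 0.24 and 0.18 from them. The other samples had values of 0.05 to 0.14. The same 3 samples had the highest neural sums, at 519, 468 and 439 CPM, against 246 to 377 CPM in the rest. They also had the highest mesodermal sums of their genotypes, and the highest sums of 4 salivary gland genes (105, 81.0 and 110 CPM). Results that rest on these 3 samples are given with and without them. Replicate 1 also had the highest neural and mesodermal sums in *jumu* loss-of-function (377 and 1691 CPM), *CHES-1-like* loss-of-function (291 and 1685 CPM) and wild-type (346 and 1774.5 CPM). Its median absolute log2 difference was the largest of its genotype in *jumu* loss-of-function (0.114) and *CHES-1-like* loss-of-function (0.125). What the first replicates share was not tested. The share of counts in 138 ribosomal RNA genes was 19.0% ± 1.02 in double loss-of-function, 23.8% ± 0.464 in *jumu* loss-of-function, 30.8% ± 1.53 in *CHES-1-like* loss-of-function, 20.1% ± 5.21 in *jumu* overexpression, 22.2% ± 3.07 in *CHES-1-like* overexpression and 21.6% ± 1.10 in wild-type (SD, n = 4 each). The 3 samples that stood apart had the highest ribosomal share of their genotypes. It was 20.19% in double loss-of-function replicate 2, against 17.85% to 19.45% in its other replicates. In *CHES-1-like* overexpression replicate 1 it was 26.59%, against 19.52% to 21.58%, and in *jumu* overexpression replicate 1 it was 26.73%, against 14.33% to 20.96%. Fold changes were taken after TMM scaling. Scaling by library totals moved the median log2 fold change of all genes tested against wild-type to 0.34 in double loss-of-function, −0.18 in *jumu* loss-of-function, −0.56 in *CHES-1-like* loss-of-function, 0.04 in *jumu* overexpression and −0.05 in *CHES-1-like* overexpression.

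In wild-type mesodermal cells, the 2 manipulated genes were the forkhead genes with the most reads per length. Levels between genes are compared here as CPM per kilobase (kb) of annotated exon, and they spanned 31.7 ± 0.906 CPM per kb for *jumu* (FBgn0015396; Release 6, 3R:10350182-10361612, plus strand) to 0.787 ± 0.254 CPM per kb for *fd59A* (FBgn0004896; 2R:22868159-22870706, plus strand; SD, n = 4 each). *CHES-1-like* (FBgn0029504; X:7682338-7709385, minus strand) followed *jumu* at 18.7 ± 0.410 CPM per kb. Of the segmentation pair, *slp1* (FBgn0003430; 2L:3825675-3827099, plus strand) stood at 8.74 ± 0.460 CPM per kb and *slp2* (FBgn0004567; 2L:3836840-3839185, plus strand) at 6.08 ± 0.529 CPM per kb.

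The visceral mesoderm factor *bin* (FBgn0045759; 3L:6990622-6994447, plus strand) lay between the *slp* genes, at 6.59 ± 0.302 CPM per kb. The gut and salivary gland factor *fkh* (FBgn0000659; 3R:28580976-28585264, minus strand) was at 4.26 ± 0.164 CPM per kb, *foxo* (FBgn0038197; 3R:14056945-14087978, plus strand) at 3.43 ± 0.374 CPM per kb and *croc* (FBgn0014143; 3L:21474133-21476479, minus strand) at 2.45 ± 0.302 CPM per kb. No exon of these 9 genes shares bases with an exon of another annotated gene. Of the other 9 forkhead genes in the table, *FoxK* was at 17.9 CPM per kb, close to *CHES-1-like*, while *fd19B* had 0 counts in every wild-type sample.

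**Figure D1:**
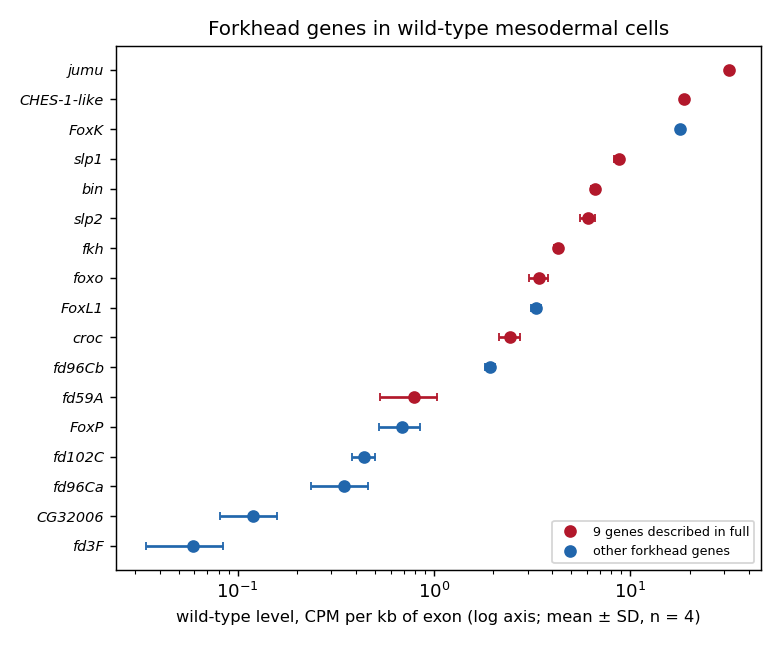
Wild-type level of each forkhead gene in CPM per kb of exon on a log axis; points are means and bars are SD over 4 replicates. *jumu* (31.7 CPM per kb) and *CHES-1-like* (18.7 CPM per kb) are at the top, next to *FoxK* (17.9 CPM per kb); *fd19B*, with 0 counts in wild-type, is not drawn.

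The targeted genes were examined first. In *jumu* loss-of-function, *jumu* was at 27.1, 30.1, 31.4 and 30.9 CPM, and in double loss-of-function at 23.6, 19.2, 22.4 and 22.5 CPM, against 126, 124, 122 and 118 CPM in wild-type. No sample of either loss genotype reached the wild-type range, yet 24.4% of the wild-type mean remained in *jumu* loss-of-function and 17.9% in double loss-of-function, with 471 to 2091 counts per sample. Over wild-type, the log2 fold change was −2.47 in double loss-of-function (standard error, SE, 0.085, FDR = 3.51e-09) and −2.02 in *jumu* loss-of-function (SE 0.054, FDR = 6.9e-18), where FDR is the Benjamini-Hochberg adjusted p of edgeR's quasi-likelihood test over all genes. The study describes *Df(3R)Exel6157* as a null deficiency for *jumu*, and the source of the remaining counts was not tested.

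*CHES-1-like* was nearly absent from its own deficiency. Its counts were 20, 68, 53 and 43 in double loss-of-function samples and 34, 14, 23 and 37 in those without *CHES-1-like* alone, against 10859, 7848, 2652 and 11428 counts in wild-type. Scaled for depth, these were 0.684, 2.78, 0.793 and 0.558 CPM in the double mutants and 0.805, 1.36, 1.72 and 0.683 CPM in the *CHES-1-like* mutants, against 154, 161, 155 and 154 CPM in wild-type. The residual mean was 0.772% of wild-type in the double mutants and 0.734% in the *CHES-1-like* mutants, far below the share left for *jumu*. The highest residual, 2.78 CPM, was in double loss-of-function replicate 2, one of the 3 samples that stood apart. Over wild-type, *CHES-1-like* had a log2 fold change of −7.39 in *CHES-1-like* loss-of-function (SE 0.12, FDR = 2.38e-24) and −7.21 in double loss-of-function (SE 0.39, FDR = 1.8e-07, both edgeR).

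Both transgenes raised their genes well above wild-type. *jumu* was at 715, 690.3, 650.4 and 648 CPM in *jumu* overexpression, 5.53-fold the wild-type mean (log2 fold change 2.48, SE 0.073, edgeR FDR = 2.48e-12). *CHES-1-like* was at 1375, 1461, 1748 and 1543 CPM in *CHES-1-like* overexpression, 9.83-fold the wild-type mean (log2 fold change 3.32, SE 0.091, edgeR FDR = 1.86e-11). The counts do not separate transgene from endogenous transcripts, so these levels are sums of both.

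The genes beside *jumu* and *CHES-1-like* were also read, because a deficiency can reach them. *CG31406*, which ends 172 bp before *jumu*, had a log2 fold change of 8.10 in double loss-of-function (SE 0.17) and 8.17 in *jumu* loss-of-function (SE 0.11) over wild-type. *Rfx*, which lies 148 bp beyond *jumu* and encodes a factor needed for ciliated sensory neurons, fell by 4.52 on the log2 scale in double loss-of-function (SE 0.23) and by 3.21 in *jumu* loss-of-function (SE 0.22). Both genes also differed without that deficiency. *Rfx* was at −0.54 in *CHES-1-like* loss-of-function (SE 0.14; not called without its replicate 3 or wild-type replicate 2) and at 0.71 in *CHES-1-like* overexpression (SE 0.12), where *CG31406* was at −2.35 (SE 0.49). On the X chromosome, the noncoding RNA gene *CR45665* lies 1060 bp before *CHES-1-like* and had 0 counts in all 8 samples of *CHES-1-like* loss-of-function and double loss-of-function. It had 4 to 18 counts in wild-type samples. *CG15478*, the nearest gene on the other side at 3398 bp, had a log2 fold change of −0.65 with a standard error of 0.86 in *CHES-1-like* loss-of-function. *Hira*, a histone chaperone gene 12734 bp beyond *CHES-1-like*, had a log2 fold change of −0.03 in *CHES-1-like* loss-of-function. The loss comparisons therefore include changes in neighbouring genes, and their part in the results for the other forkhead genes was not tested.

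**Figure D2:**
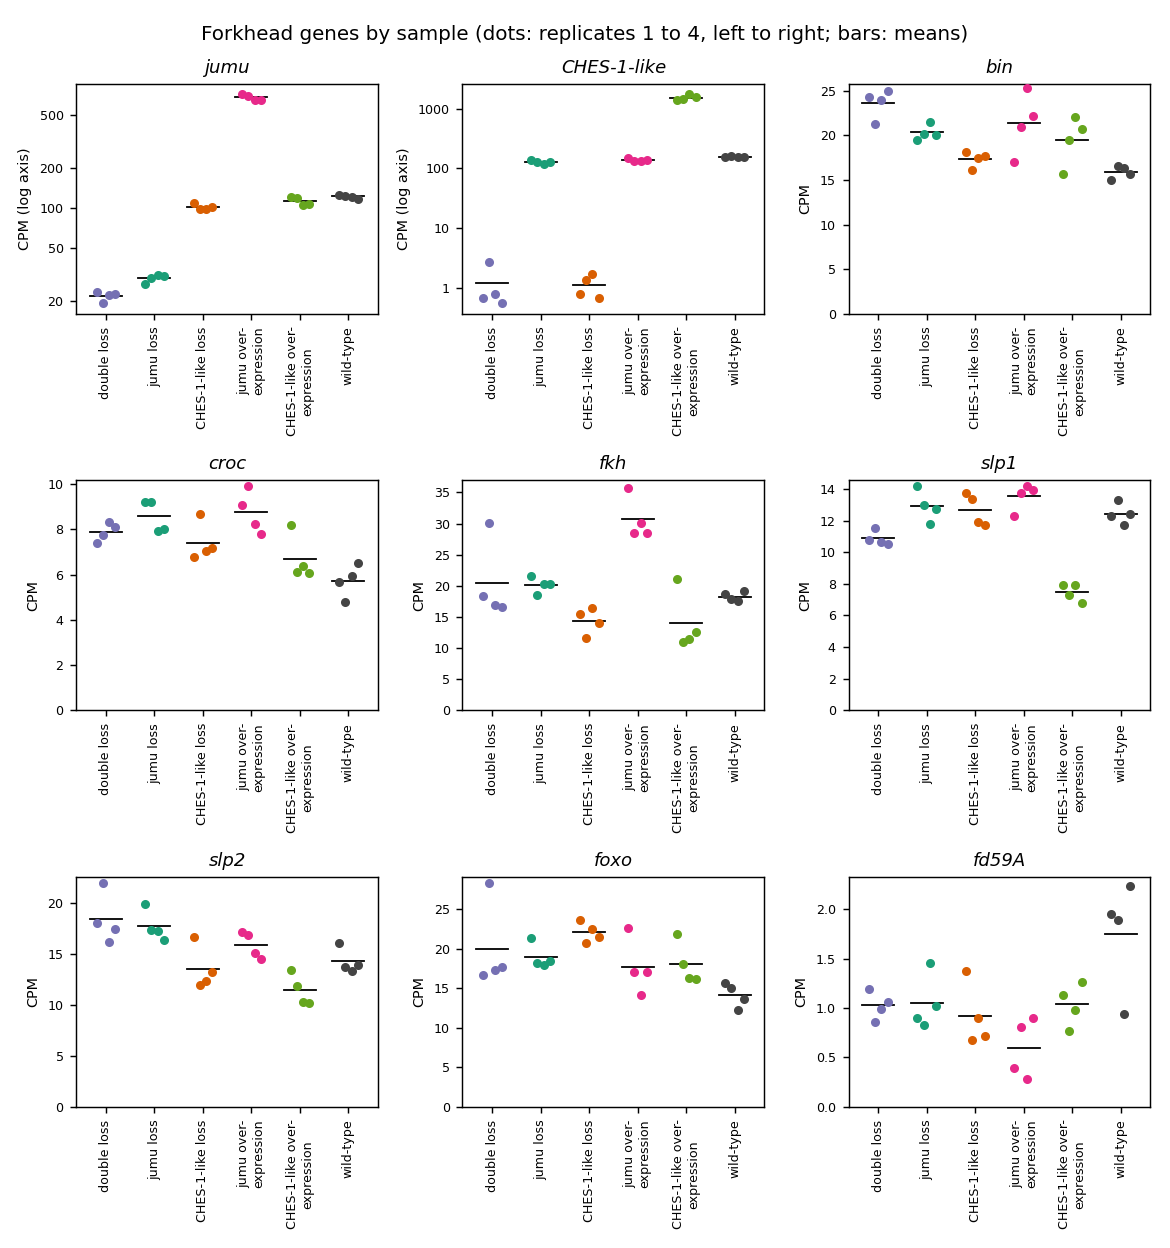
CPM of each of the 9 forkhead genes in the 24 samples; dots are replicates, black bars are means, and the *jumu* and *CHES-1-like* axes are logarithmic. *jumu* stays at 19.2 to 31.4 CPM in its deficiency while *CHES-1-like* is at or under 2.78 CPM in its own, and single high dots mark double loss-of-function replicate 2 for *fkh* (30.1 CPM) and *foxo* (28.3 CPM).

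A gene was called when its FDR was below 0.1 and its log2 fold change was beyond 0.5 in either direction, the relaxed criteria of the study, among 12233 genes kept after the lowest 30% by average expression were excluded; all 9 genes passed this filter. In double loss-of-function 4 of the 9 were called, *bin* higher (11.9% of all genes tested) and *jumu*, *CHES-1-like* and *fd59A* lower (12.8%), where 24.7% of all genes were called in either direction. In *jumu* loss-of-function 3 were called, *croc* higher (9.82% of all genes) and *jumu* and *fd59A* lower (9.54%), against 19.4% in either direction. In *CHES-1-like* loss-of-function 3 were called, *foxo* higher (6.24%) and *CHES-1-like* and *fd59A* lower (9.18%), against 15.4%. In *jumu* overexpression 4 were called, *jumu*, *croc*, *fkh* and *fd59A*, against 15.7%, and in *CHES-1-like* overexpression 3 were called, *CHES-1-like*, *slp1* and *fd59A*, against 33.1%. Without the genes each genotype manipulates, this leaves 3 genes in *jumu* overexpression and 2 in each other comparison, and of the 7 unmanipulated genes *slp2* alone was called in none. All 5 comparisons share the same 4 wild-type samples, so a gene that moved alike in several of them was not measured independently in each.

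All 4 samples lay outside the wild-type range for 7 of the 9 genes in double loss-of-function (37.1% of all genes), 6 in *jumu* loss-of-function (36.6%), 5 in *CHES-1-like* loss-of-function (30.6%), 6 in *jumu* overexpression (28.6%) and 3 in *CHES-1-like* overexpression (45.3%). These counts include the genes that each genotype manipulates, *jumu* and *CHES-1-like* in double loss-of-function and the named gene in each other genotype. Their separation was set by the genotype, so the counts cannot be read against those shares as a result about the family.

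**Figure D3:**
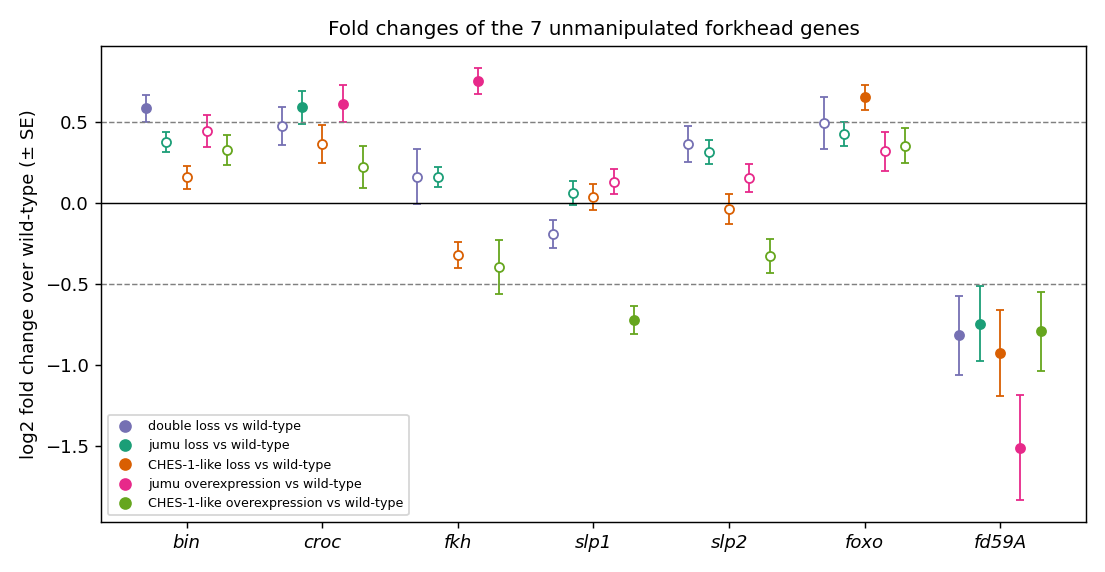
Log2 fold change over wild-type with its standard error for the 7 forkhead genes that were not manipulated; filled points passed an FDR below 0.1 and the 0.5 threshold drawn as dashed lines. *fd59A* lies below −0.5 in all 5 comparisons, *foxo*, *croc* and *bin* lie above 0 (under library totals *croc* and *bin* lie below 0 in the *CHES-1-like* mutants), and *slp1* is called only in *CHES-1-like* overexpression (−0.72).

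*jumu* and *CHES-1-like* were each slightly lower where the other was removed. *CHES-1-like* was at 136, 126, 120.2 and 129 CPM in *jumu* loss-of-function, below the wild-type range of 154 to 161 CPM in every sample. This was a log2 fold change of −0.27 (SE 0.047, edgeR FDR = 9.25e-05), which did not pass the 0.5 threshold. *jumu* was at 109, 98.8, 99.0 and 101 CPM in *CHES-1-like* loss-of-function, below the wild-type range of 118 to 126 CPM in every sample, with a log2 fold change of −0.24 (SE 0.051, edgeR FDR = 9.59e-04), or −0.80 and called under library totals. Neither gene reacted to an excess of the other by a called amount. *CHES-1-like* was at 147, 132, 134 and 138 CPM in *jumu* overexpression, again below every wild-type sample (log2 fold change −0.17, SE 0.063, edgeR FDR = 0.0836). *jumu* was at 122, 119, 106 and 108 CPM in *CHES-1-like* overexpression, which overlapped wild-type (log2 fold change −0.087, SE 0.070, edgeR FDR = 0.408).

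The remaining *jumu* counts were lower again when *CHES-1-like* was lost as well. All 4 double loss-of-function samples, at 19.2 to 23.6 CPM, were below all 4 *jumu* loss-of-function samples, at 27.1 to 31.4 CPM. Between these groups the log2 fold change was −0.44 (SE 0.091, edgeR FDR = 0.0135), short of the 0.5 threshold, and it was 0.053 when scaled by library totals. Of the 9 genes, 1 was called in that comparison, *CHES-1-like* itself at −6.93, against 9.42% of all genes in either direction, 3.74% higher and 5.67% lower. *jumu*, *CHES-1-like* and *slp1* lay wholly below *jumu* loss-of-function, 3 of 9 against 22.6% of all genes that did not overlap. Double over *CHES-1-like* loss-of-function likewise had 1 call, *jumu* at −2.21, against 20.7% in either direction, 11.8% higher and 8.91% lower. There 4 of 9 genes did not overlap (30.5% of all genes), *bin* and *fkh* higher and *jumu* and *slp1* lower.

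*bin*, the FoxF gene that visceral muscle requires, was highest where both Fox genes were lost. It was at 24.3, 21.2, 23.98 and 24.9 CPM in double loss-of-function, against 14.97, 16.6, 16.3 and 15.7 CPM in wild-type. No double loss-of-function sample overlapped wild-type, and the log2 fold change was 0.58 (SE 0.083, edgeR FDR = 3.99e-04). Every sample also exceeded the *CHES-1-like* mutants, which had 16.1 to 18.2 CPM, by 0.44 on the log2 scale (SE 0.095, edgeR FDR = 0.00598), which did not pass the threshold. *jumu* loss-of-function, at 19.5 to 21.5 CPM, was above every wild-type sample without a call (log2 fold change 0.38, SE 0.062).

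*jumu* overexpression, at 17.0, 21.0, 25.3 and 22.2 CPM, also had *bin* above every wild-type sample (log2 fold change 0.44, SE 0.098). The sample at 17.0 CPM was replicate 1, which stood apart, and without it the log2 fold change was 0.53 and *bin* was called (edgeR FDR = 4.18e-05). *bin* was thus not opposite in loss and overexpression of *jumu*, since its log2 fold change over wild-type was positive in both, under library totals as well. In *CHES-1-like* loss-of-function the log2 fold change was 0.16 (SE 0.070), and −0.39 under library totals.

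Other visceral mesoderm genes were read as a list of 8 (*bap*, *Alk*, *Fas3*, *Hand*, *org-1*, *dpp*, *jeb* and *mib2*). In double loss-of-function 5 of the 8 were higher by a called amount and 0 were lower, where 11.9% of all genes were higher, with a median log2 fold change of 0.51 against 0.02 for all genes. *Hand*, a transcription factor of visceral and heart cells, changed most (log2 fold change 1.34, SE 0.17, edgeR FDR = 1.37e-04). *org-1*, a T-box factor, was at 0.67 (SE 0.10), and *Alk*, the receptor tyrosine kinase of visceral founder cells, at 0.63 (SE 0.14). *Fas3*, an adhesion molecule, at 0.51, and the signal *dpp* at 0.51 were called as well, but without double loss-of-function replicate 2 their log2 fold changes were 0.27 and 0.19 and neither was called. In that setting *jeb* was called as lower, so 3 of the 8 were higher and 1 was lower, where 1482 of 12233 genes were higher and 1745 lower. The list median of 0.51 was set by *Fas3* and *dpp*, the middle values, and was not recomputed without that replicate. *jeb* was at 25.1, 45.6, 24.4 and 27.3 CPM in double loss-of-function, with replicate 2 the highest, against 36.6 to 40.9 CPM in wild-type. *Fas3* was also lost without wild-type replicate 2 (0.49), and *dpp* without double loss-of-function replicate 1 or any 1 wild-type sample (edgeR FDR = 0.103 to 0.194). With the replicate number as a block, *Fas3* (0.47) and *dpp* (0.46) were not called and 3 of 8 were (2749 of 12233 genes). *dpp* was also lost with RLE factors (edgeR FDR = 0.102) and in 1 fit of all samples (0.499).

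In *jumu* loss-of-function 2 of the 8 were called, *Alk* (0.73) and *Hand* (0.72), both higher, against 9.82% of all genes, and in *CHES-1-like* loss-of-function 0 were called (15.4%). *jumu* overexpression had *Hand* higher (0.67), 1 of 8 against 7.99%. *CHES-1-like* overexpression was mixed, with 1 gene higher (16.7% of all genes) and 2 lower (16.5%). There *Hand* was higher (log2 fold change 1.00, SE 0.14), while *bap*, the NK factor upstream of *bin* in visceral mesoderm, fell by 1.10 on the log2 scale (SE 0.10) and *jeb*, the ligand of Alk, fell by 1.55 (SE 0.14). *bin* itself was at 15.6, 19.5, 22.1 and 20.7 CPM in that genotype, with a log2 fold change of 0.33 (SE 0.092, edgeR FDR = 0.0123) that was not called.

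*croc*, the FoxC gene named for its role in the embryonic head, was higher in the *jumu* genotypes of both kinds. It was at 9.22, 9.23, 7.95 and 8.03 CPM in *jumu* loss-of-function and at 9.10, 9.93, 8.23 and 7.79 CPM in *jumu* overexpression, against 5.70, 4.799, 5.96 and 6.497 CPM in wild-type. Neither *jumu* genotype overlapped wild-type. The log2 fold change was 0.59 in *jumu* loss-of-function (SE 0.10, edgeR FDR = 1.12e-04) and 0.61 in *jumu* overexpression (SE 0.12, edgeR FDR = 0.00165). The call in *jumu* loss-of-function was close to the threshold, and without wild-type replicate 2, the lowest sample, the log2 fold change was 0.50 and *croc* was not called. It was 0.42, and not called, under library totals.

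Double loss-of-function (7.39 to 8.35 CPM, log2 fold change 0.47, SE 0.12, edgeR FDR = 0.0122) and the *CHES-1-like* mutants (range 6.79 to 8.67 CPM, log2 fold change 0.36, SE 0.12, edgeR FDR = 0.0304) also had *croc* above every wild-type sample without a call. Under library totals the fold change in *CHES-1-like* loss-of-function was −0.17. Without double loss-of-function replicate 1 or wild-type replicate 4, *croc* was called in double loss-of-function (0.50 and 0.55). In *CHES-1-like* overexpression *croc* overlapped wild-type, and its highest sample, 8.19 CPM, was replicate 1, which stood apart from the range of 6.07 to 6.38 CPM in the other replicates.

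*fkh*, the founding FoxA gene, which specifies the ends of the gut and the salivary glands, differed between the overexpression genotypes and was called over wild-type with *jumu*. It was at 35.7, 28.5, 30.1 and 28.5 CPM in *jumu* overexpression and at 21.2, 11.0, 11.4 and 12.5 CPM in *CHES-1-like* overexpression, against 18.6, 17.9, 17.5 and 19.1 CPM in wild-type. Every *jumu* overexpression sample was above wild-type (log2 fold change 0.75, SE 0.080, edgeR FDR = 8.33e-06). In *CHES-1-like* overexpression 3 samples were below wild-type and replicate 1 was above it. With all samples the log2 fold change was −0.40 (SE 0.16, edgeR FDR = 0.0814), which was not called, and without replicate 1 it was −0.65 and called (edgeR FDR = 1.17e-08).

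Set against each other directly, *jumu* over *CHES-1-like* overexpression gave a log2 fold change of 1.15 for *fkh* (SE 0.18, edgeR FDR = 1.9e-04), and 1.32 without the first replicate of both genotypes, a comparison chosen after the data were seen. Marker genes of tissues that use *fkh* were measured beside it. The midgut gene *GATAe*, which was the whole midgut list, had 9.86 to 14.0 CPM in *jumu* overexpression, 4.71 to 5.35 CPM in *CHES-1-like* overexpression and 5.67 to 6.66 CPM in wild-type. The sum of 4 salivary gland genes (*sage*, *PH4alphaSG1*, *PH4alphaSG2* and *CrebA*) was 59.5 to 110 CPM in *jumu* overexpression, 44.3 to 81.0 CPM in *CHES-1-like* overexpression and 72.1 to 82.0 CPM in wild-type. *GATAe* thus moved with *fkh* in *jumu* overexpression. Its log2 fold change over wild-type was −0.26 in both *CHES-1-like* loss-of-function and *CHES-1-like* overexpression, where *fkh* was at −0.32 and −0.40, none of them called. In double loss-of-function *GATAe* was called higher, at 0.53 (11.9% of all genes), and in *jumu* loss-of-function it was at 0.39, not called. There *fkh* was at 0.16 in both and not called. In *jumu* overexpression the salivary sum of 110 CPM was that of replicate 1, which stood apart, and the other 3 samples, at 59.5 to 71.1 CPM, were below every wild-type sample. There 1 of the 4 genes was called lower, against 7.68% of all genes, and the list median was −0.55 against 0.01 for all genes. In *CHES-1-like* overexpression the salivary sum of 81.0 CPM was likewise that of replicate 1, and the other replicates, at 44.3 to 49.3 CPM, were below every wild-type sample. With all replicates, 1 of the 4 genes was called lower there, against 16.5% of all genes, and the list median was −0.095 against 0.01. The part of these cells in the *fkh* result was not tested.

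The loss genotypes changed *fkh* less. It was below every wild-type sample in *CHES-1-like* loss-of-function, at 15.4, 11.6, 16.4 and 14.0 CPM, with a log2 fold change of −0.32 (SE 0.081, edgeR FDR = 0.00482) that did not pass the threshold, or −0.86 and called under library totals. In *jumu* loss-of-function the log2 fold change was 0.16 (SE 0.061), and −0.020 under library totals. In double loss-of-function *fkh* was at 18.3, 30.1, 16.9 and 16.6 CPM, with the sample at 30.1 CPM being replicate 2. The log2 fold change over wild-type was 0.16 with that sample and −0.095 without it, and neither was called.

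*slp1* and *slp2* are neighbouring FoxG-type genes that act together in segmentation, and in the mesoderm they limit where visceral fates form. They lie 9741 bp apart with 0 annotated genes between them. *slp1* fell with *CHES-1-like* overexpression, where it was at 7.92, 7.31, 7.94 and 6.79 CPM, against 12.3, 13.3, 11.7 and 12.4 CPM in wild-type. No sample overlapped wild-type or any other genotype (log2 fold change −0.72, SE 0.085, edgeR FDR = 1.09e-05). *slp2* in the same samples was at 13.4, 11.8, 10.2 and 10.2 CPM, against 16.1, 13.7, 13.3 and 13.9 CPM in wild-type, with a log2 fold change of −0.33 (SE 0.10, edgeR FDR = 0.023) that was not called.

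The *slp* genes did not move as a pair in double loss-of-function. *slp1* was at 10.8, 11.5, 10.6 and 10.5 CPM, below every wild-type sample, with a log2 fold change of −0.19 (SE 0.084, edgeR FDR = 0.131), or 0.12 under library totals. *slp2* was at 18.0, 21.98, 16.1 and 17.4 CPM, above every wild-type sample, with a log2 fold change of 0.36 (SE 0.11, edgeR FDR = 0.0346). Neither passed both thresholds, and the difference between the pair was not tested. *slp2* was also above every wild-type sample in *jumu* loss-of-function (16.4 to 19.9 CPM, log2 fold change 0.31, SE 0.075, edgeR FDR = 0.00249).

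Of 10 other segment patterning genes (*wg*, *en*, *hh*, *ptc*, *gsb*, *prd*, *odd*, *eve*, *ftz* and *run*), 1 of 10 was called in *CHES-1-like* overexpression, *gsb*, a Pax gene of the segment polarity class, which fell by 1.30 on the log2 scale (SE 0.093, edgeR FDR = 1.05e-07), against 16.5% of all genes called lower. In double loss-of-function 2 of 10 were called, both lower (12.8% of all genes). They were *en*, the homeobox gene of posterior compartments, at −0.87 (SE 0.11, edgeR FDR = 2e-04) and *ptc*, the Hedgehog receptor, at −0.75 (SE 0.084, edgeR FDR = 7.09e-05). *en* was called in *jumu* overexpression as well, at −0.53, 1 of 10 against 7.68%, and it was not called without replicate 1 (−0.45) or without wild-type replicate 2 (−0.50). In each single loss genotype 0 of the 10 were called, against 19.4% of all genes in *jumu* loss-of-function and 15.4% in *CHES-1-like* loss-of-function. The count for *jumu* depended on the fit, with 2 called with a replicate block (*ftz* and *hh*), 1 in the fit of all samples (*hh*), 3 under library totals, and 1 or 2 when *jumu* loss-of-function replicate 2 or 3 or wild-type replicate 1, 2 or 4 was left out. For the *CHES-1-like* mutants it was 7 under library totals. That scaling called 2933 of 12233 genes in *jumu* loss-of-function and 6535 in *CHES-1-like* loss-of-function. In *jumu* loss-of-function the replicate block called 2363 genes, the fit of all samples 2096, and the fits without 1 of those samples 2237 to 2367.

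*foxo*, the FoxO factor that insulin signalling keeps out of the nucleus, was above wild-type on average in all 5 other genotypes, under TMM scaling and under library totals. It was called in *CHES-1-like* loss-of-function, with 23.6, 20.7, 22.5 and 21.6 CPM, against 15.7, 15.1, 12.2 and 13.7 CPM in wild-type. These groups did not overlap (log2 fold change 0.65, SE 0.076, edgeR FDR = 4.2e-07), and under library totals the log2 fold change was 0.11 and not called, whereas in double loss-of-function it was then 0.80 and called. In *jumu* loss-of-function *foxo* was at 21.3, 18.2, 18.0 and 18.5 CPM, above every wild-type sample but below the 0.5 threshold (log2 fold change 0.42, SE 0.076, edgeR FDR = 1.63e-04).

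Whether the effects of both losses on *foxo* add up was tested next. Double loss-of-function had 16.8, 28.3, 17.3 and 17.7 CPM, and its log2 fold change over wild-type was 0.49 (SE 0.16, edgeR FDR = 0.0497), or 0.27 without replicate 2, the sample at 28.3 CPM. Without any of replicates 1, 3 and 4, or without wild-type replicate 1 or 2, it was 0.52 to 0.57 and called. The interaction, which is the log2 effect of double loss minus the sum of both single losses in a fit of 16 samples, was −0.59 (SE 0.19, edgeR FDR = 0.0494). Of the 9 genes *foxo* was the 1 called in the interaction, against 12.2% of all genes in either direction and 6.23% below 0. The call was lost when *jumu* loss-of-function replicate 1 or double loss-of-function replicate 1 was left out (edgeR FDR = 0.107 and 0.104), and without double loss-of-function replicate 2 the interaction was −0.79. Under library totals it was 0.43, with the median of all genes at 1.08. *croc* was next, with an interaction of −0.49 (SE 0.15, edgeR FDR = 0.0538).

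In the overexpression genotypes *foxo* was at 22.7, 17.1, 14.1 and 17.1 CPM for *jumu* (log2 fold change 0.32, SE 0.12, edgeR FDR = 0.0908) and at 21.9, 18.1, 16.3 and 16.2 CPM for *CHES-1-like* (log2 fold change 0.35, SE 0.11, edgeR FDR = 0.0197), and neither was called. The *CHES-1-like* overexpression samples all lay above wild-type, and the *jumu* overexpression samples overlapped it. Without replicate 1, which stood apart, the log2 fold change was 0.17 in *jumu* overexpression and 0.22 in *CHES-1-like* overexpression. In each of the 6 genotypes the sample with the most *foxo* was the replicate with the highest neural marker sum. This was replicate 2 in double loss-of-function and replicate 1 in every other genotype. Between genotypes the order differed, as the *CHES-1-like* mutants had neural sums of 246 to 291 CPM with *foxo* at 20.7 to 23.6 CPM. The 3 samples that stood apart were also the highest of their genotypes for *fkh* and for *FoxK*. These 3 samples also had the highest ribosomal RNA share of their genotypes. The part of the neural cells, or of that share, in these values was not tested.

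**Figure D4:**
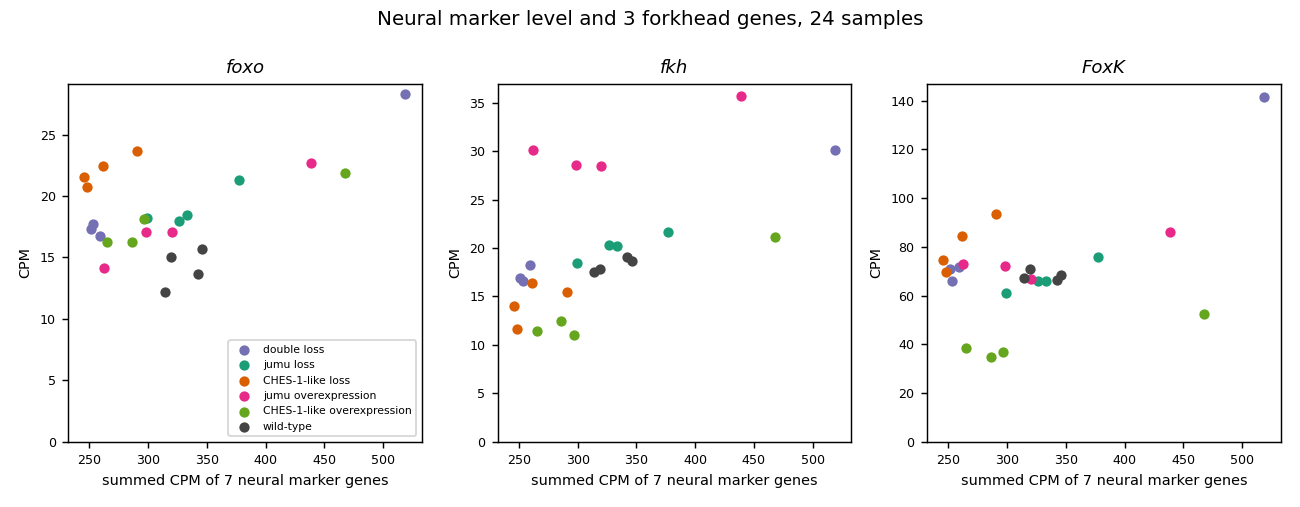
CPM of *foxo*, *fkh* and *FoxK* against the summed CPM of 7 neural marker genes (*elav*, *nSyb*, *Syt1*, *brp*, *repo*, *pros* and *scrt*) in the 24 samples, coloured by genotype. The 3 points at or beyond 439 CPM are double loss-of-function replicate 2 and replicate 1 of each overexpression genotype, each the highest of its genotype in all 3 panels.

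A list of 12 insulin receptor and *foxo* pathway genes (*InR*, *chico*, *Pi3K92E*, *Pi3K21B*, *Pdk1*, *Akt1*, *Thor*, *Lk6*, *Sesn*, *bmm*, *Lip4* and *step*) was read beside *foxo*. In *CHES-1-like* loss-of-function, where *foxo* itself was called, 0 of the 12 were called (15.4% of all genes), and likewise 0 in *jumu* loss-of-function (19.4%). *Sesn* became the 1 call in the *CHES-1-like* mutants when their replicate 2 or 4, or wild-type replicate 4, was left out (1619 to 1848 of 12233 genes). In double loss-of-function 1 was higher (11.9% of all genes) and 1 lower (12.8%). The lipase gene *bmm* was at 0.71 on the log2 scale (SE 0.13), and *Thor*, the translation inhibitor 4E-BP and a target of FoxO, fell by 0.80 (SE 0.22). In *jumu* overexpression 1 of 12, the lipase gene *Lip4*, was lower at −0.86 (SE 0.18), against 7.68%.

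In *CHES-1-like* overexpression 5 of the 12 were lower and 0 higher, where 16.5% of all genes were lower, and the median of the list was −0.47 against 0.01 for all genes. The insulin receptor gene *InR* fell by 0.61 on the log2 scale (SE 0.12), *step*, a guanine nucleotide exchange factor of the pathway, by 0.60 (SE 0.079), *Pi3K92E*, the catalytic subunit of PI3 kinase, by 0.54 (SE 0.059) and *bmm* by 0.53 (SE 0.067). *Sesn* was the remaining call at −0.52, close to the threshold, and was not called without *CHES-1-like* overexpression replicate 2 or wild-type replicate 4. Without *CHES-1-like* overexpression replicate 1, 7 of the 12 were called, where 4239 of 12233 genes were called.

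*fd59A*, a FoxD gene expressed in the nervous system, was the lowest of the 9 genes per kb in wild-type and was called lower in all 5 comparisons. It was at 1.20, 0.858, 0.987 and 1.06 CPM in double loss-of-function, 0.899, 0.828, 1.46 and 1.02 CPM in *jumu* loss-of-function and 1.37, 0.682, 0.899 and 0.720 CPM in *CHES-1-like* loss-of-function. It was at 0.396, 0.809, 0.279 and 0.902 CPM in *jumu* overexpression and 1.13, 0.764, 0.985 and 1.27 CPM in *CHES-1-like* overexpression, against 1.96, 1.89, 0.935 and 2.23 CPM in wild-type. Wild-type replicate 3 was well below its group, at 16 counts in the shallowest wild-type sample, and *jumu* overexpression alone lay wholly below the wild-type range.

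The log2 fold change of *fd59A* was −1.51 in *jumu* overexpression (SE 0.32, edgeR FDR = 0.0039) and lay between −0.93 and −0.74 in the other comparisons, with edgeR FDRs of 0.0129 to 0.0332. These are counts of 7 to 166 per sample, and all 5 calls rest on the same wild-type samples. Without wild-type replicate 4, the highest, the call in double loss-of-function was lost (log2 fold change −0.68, edgeR FDR = 0.128). It was also lost under library totals (−0.48, edgeR FDR = 0.164). The neural sum was higher in the 3 samples that stood apart, whereas *fd59A* was at 0.858 CPM in double loss-of-function replicate 2, 0.396 CPM in *jumu* overexpression replicate 1 and 1.13 CPM in *CHES-1-like* overexpression replicate 1, the lowest of its genotype in double loss-of-function and within the range of the other replicates in both overexpression genotypes.

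Set directly against *CHES-1-like* overexpression, *jumu* overexpression differed in 4 of the 9 genes by a called amount, against 36.1% of all genes in either direction, 18.1% higher and 17.9% lower. In 5 of 9, the manipulated *jumu* and *CHES-1-like* among them, the groups did not overlap (42.5% of all genes). Besides *jumu* (log2 fold change 2.57), *CHES-1-like* (−3.47) and *fkh*, this was *slp1*, at 12.3, 13.8, 14.2 and 13.9 CPM in *jumu* overexpression, above all *CHES-1-like* overexpression samples (log2 fold change 0.86, SE 0.10, edgeR FDR = 1.35e-05). *slp2*, at 14.5 to 17.1 CPM in *jumu* overexpression, was likewise above every *CHES-1-like* overexpression sample, at 0.49 on the log2 scale (SE 0.11, edgeR FDR = 0.00413), and it was at 0.53 and called, making 5 calls, without the first replicate of both genotypes. That setting called 4594 of 12233 genes. *bin* (0.13, SE 0.12) and *foxo* (−0.03, SE 0.14) had differences close to or below their standard errors.

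The other 9 forkhead genes of the table were *FoxK*, *FoxL1*, *FoxP*, *fd96Ca*, *fd96Cb*, *fd102C*, *fd3F*, *CG32006* and *fd19B*, of which all but *fd19B*, with 0 or 1 count per sample, passed the expression filter. Of these 8, 2 were called in double loss-of-function (24.7% of all genes), 1 in *jumu* loss-of-function (19.4%), 0 in *CHES-1-like* loss-of-function (15.4%), 3 in *jumu* overexpression (15.7%) and 3 in *CHES-1-like* overexpression (33.1%). The 0 in *CHES-1-like* loss-of-function became 3 with DESeq2, 1 with a replicate block and 4 under library totals. Those settings called 2012, 1930 and 6535 of 12233 genes. The count became 1 or 2 without *CHES-1-like* loss-of-function replicate 1 or 2 or wild-type replicate 2 or 3 (1722 to 1868 genes). Without *CHES-1-like* overexpression replicate 1, which stood apart, 5 were called in that genotype (4239 genes). *fd96Ca*, a FoxB-type gene, was below every wild-type sample in all 5 genotypes. It was at 0, 0.166, 0.134 and 0.206 CPM in *CHES-1-like* overexpression, against 0.765, 0.636, 1.11 and 0.551 CPM in wild-type.

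The log2 fold change of *fd96Ca* was −2.26 in *CHES-1-like* overexpression (SE 0.43, edgeR FDR = 7.22e-04), −1.23 in *jumu* overexpression (SE 0.38), −1.08 in double loss-of-function (SE 0.34), −0.68 in *jumu* loss-of-function (SE 0.30, edgeR FDR = 0.099) and −0.72 in *CHES-1-like* loss-of-function (SE 0.35), where it was not called. These are counts of 0 to 54 per sample, and the call in *jumu* loss-of-function was lost when any of 7 of the 8 samples was left out. The call in double loss-of-function was lost without wild-type replicate 1 (edgeR FDR = 0.106). The neighbouring *fd96Cb* fell in both overexpression genotypes, by 1.08 with *jumu* (SE 0.19) and by 0.89 with *CHES-1-like* (SE 0.20) on the log2 scale, and no sample of either overlapped wild-type.

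*FoxK* and *FoxP* separated the overexpression genotypes. *FoxK* was at 52.6, 37.0, 38.3 and 34.9 CPM in *CHES-1-like* overexpression, against 68.4, 71.0, 67.4 and 66.2 CPM in wild-type, a fall in every sample (log2 fold change −0.73, SE 0.11, edgeR FDR = 9.46e-05). *FoxP*, which is best known from neurons, was at 5.63, 5.44, 4.66 and 6.31 CPM in *jumu* overexpression, against 4.00, 2.71, 2.34 and 3.01 CPM in wild-type, higher in every sample (log2 fold change 0.85, SE 0.16, edgeR FDR = 0.00133). *jumu* over *CHES-1-like* overexpression gave 0.87 for *FoxK* (SE 0.13) and 1.27 for *FoxP* (SE 0.17), and these were the 2 of 8 called there (36.1%). *FoxL1* was above every wild-type sample in all genotypes but *CHES-1-like* loss-of-function, with log2 fold changes of 0.29 to 0.48 and no call over wild-type.

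*FoxL1* was called between the loss genotypes. It was at 6.46, 6.00, 5.46 and 5.96 CPM in double loss-of-function, above every *CHES-1-like* loss-of-function sample at 3.53, 3.70, 3.52 and 4.51 CPM (log2 fold change 0.63, SE 0.14, edgeR FDR = 0.00841). It was the 1 of 8 called in that comparison (20.7%). *fd102C* was called higher in double loss-of-function over wild-type (0.97, SE 0.27, edgeR FDR = 0.0223), and 0.67 without replicate 2, its highest sample.

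**Figure D5:**
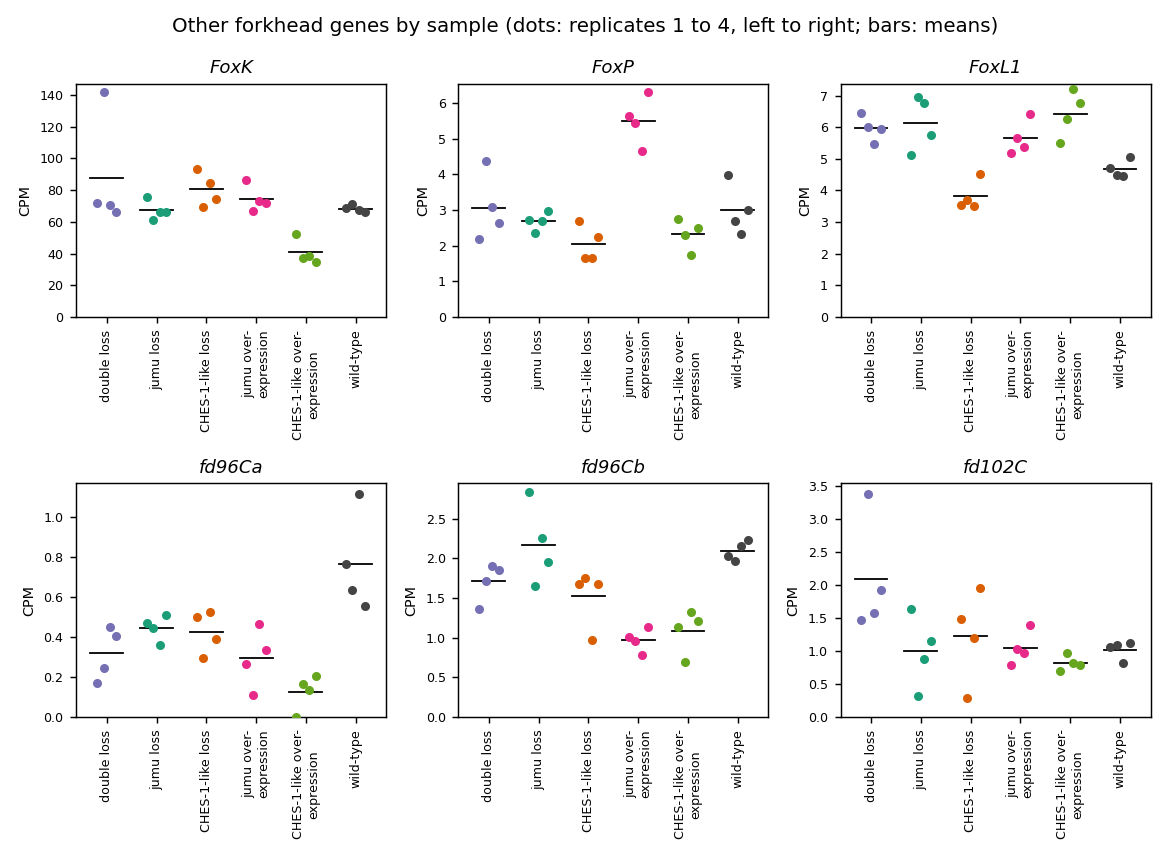
CPM of 6 other forkhead genes in the 24 samples; dots are replicates and black bars are means. *FoxK* is lowest in *CHES-1-like* overexpression (34.9 to 52.6 CPM), *FoxP* highest in *jumu* overexpression (4.66 to 6.31 CPM), and *fd96Ca* highest in wild-type (0.551 to 1.11 CPM).

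Genes whose pattern over the 6 genotype means was most like that of a forkhead gene were found among 8853 genes with a mean of at least 1 CPM, for the 4 forkhead genes whose means spanned more than 1 on the log2 scale. Likeness was the root mean square distance between centred log2 means. For *jumu* the nearest were *CG14814* (0.67), *swa* (0.74), whose product localises maternal mRNA in the egg, and *CG4576* (0.88). For *CHES-1-like* they were *CG15882* (1.62), *tgy* (1.84) and *CG2233* (1.95), so no gene came close to the full span of *CHES-1-like*.

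For *fkh* the nearest were *HisCl1* (0.081), a histamine-gated chloride channel gene, *tRNA:L3:49Fa* (0.0996) and *CG3939* (0.109), all highest in *jumu* overexpression. For *fd59A* they were *spo* (0.148), which encodes an ecdysteroid synthesis enzyme, *CG3270* (0.184) and *CG3259* (0.190), all highest in wild-type and lowest in *jumu* overexpression. With 6 means per gene, these distances describe likeness of pattern and nothing more.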

How the data were processed

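The authors mapped reads of stranded total RNA libraries with TopHat2 at default parameters to Release 6 of the fly genome, and deposited whole-number counts per gene without normalization; HTSeq and SAMtools are named in the submitters' processing notes, and whether counting used the strand is not given in the sources used here. Each of 24 columns was matched to its sample by the name in the sample description. Positions and exon lengths came from Ensembl release 115 (annotation 6.54), which holds 17199 of the 17476 identifiers.

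Counts were tested in R 4.3.3 with edgeR 4.0.16 (glmQLFit and glmQLFTest) on the 8 samples compared, or 16 for the interaction, with TMM factors over all genes. The fit took genes with 1 count or more, FDRs (Benjamini-Hochberg) covered the whole table, and the lowest 30% by average log2 CPM were then excluded. Standard errors were derived from the F statistics. CPM per sample used TMM factors of all 24 samples, so ratios of CPM differ slightly from fitted fold changes. The fits were tested on simulated data. No pair of samples within a genotype agreed within sampling noise (36 pairs). Each p-value tests a difference between genotypes against the spread between biological replicates.

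The 9 genes were fixed by symbol, and they and the lists were chosen with earlier results of these data known, so no p was adjusted over a list. All 9 genes, the other forkhead genes called, the genes beside *jumu* and *CHES-1-like*, and up to 4 genes of lowest FDR per list were named; *InR*, *dpp*, *ftz*, *hh* and *Hira*, and *jeb* in double loss-of-function, were named besides, after their values were seen. Alternatives were RLE factors or library totals, DESeq2 1.42.0, no expression filter, 1 fit over the 24 samples, a replicate block, and leaving out samples in turn. Leaving out both first overexpression replicates was added after seeing the data, as was applying the alternatives to the lists. One gene of the *foxo* pathway list is not reported here and was left out of its counts.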

Additional observations from a re-analysis of the deposited data

Results flagged for a closer look

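In 4 of 54 sets of 4 replicates of the 9 forkhead genes, one sample lay farther from the others than Dixon's criterion allows, where about 1 in 20 sets would by chance. *fkh* and *foxo* were both high in double loss-of-function replicate 2, at log2 CPM values of 4.92 and 4.83. *croc* was high in *CHES-1-like* overexpression replicate 1, at a log2 CPM of 3.04. *foxo* was high in *jumu* loss-of-function replicate 1, at a log2 CPM of 4.42. The first 3 of these values come from samples that stood apart across all genes.

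The effect of *CHES-1-like* loss on *foxo* differed between embryos with and without *jumu*, by an interaction of −0.59 on the log2 scale that passed edgeR's quasi-likelihood test (FDR = 0.0494). The value depended on single samples and on the scaling, as given with the *foxo* results.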

How the results depend on the processing

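Scaling by library totals changed most, since it moved the median of all genes. The number of the 9 genes called became 6 in *CHES-1-like* loss-of-function over wild-type (*jumu*, *fkh*, *slp1* and *slp2*, at −0.80, −0.86, −0.50 and −0.57, were added and *foxo* was lost), 4 in double over *jumu* loss, 9 in double over *CHES-1-like* loss and 8 in the interaction. Of the 12233 genes tested, 6535, 5644, 9356 and 9754 were called in these comparisons, so the shift was that of the whole table. Scaling by library totals turned the sign of log2 fold changes over wild-type for *fkh* and *slp1* in *jumu* loss (−0.020 and −0.12), *bin*, *croc* and *slp1* in *CHES-1-like* loss (−0.39, −0.17 and −0.50) and *slp1* in double loss (0.12). It also turned *jumu*, *croc*, *slp1* and *fd59A* in double over *jumu* loss (0.053, 0.38, 0.24 and 0.44), *slp1* and *foxo* in double over *CHES-1-like* loss (0.63 and 0.69), *foxo* in *jumu* over *CHES-1-like* overexpression (0.029), and *jumu*, *croc*, *slp1* and *foxo* in the interaction (0.85, 0.55, 0.74 and 0.43). RLE factors and DESeq2 each gave 2 calls in double over *CHES-1-like* loss, adding *fkh* (2561 and 2743 genes called). 

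Leaving out one sample gave 2 to 3 calls in *jumu* loss over wild-type, 3 in *CHES-1-like* loss, 4 to 6 in double loss, 4 to 5 in *jumu* overexpression, 3 to 4 in *CHES-1-like* overexpression, 1 in double over *jumu* loss, 1 to 2 in double over *CHES-1-like* loss, 4 to 6 between the overexpression genotypes and 0 to 3 in the interaction. Of 12233 genes these fits called 2237 to 2395, 1619 to 1868, 2591 to 3227, 1619 to 2072 and 3811 to 4239 over wild-type. In the other comparisons, in the same order, they called 750 to 1611, 2206 to 3067, 4134 to 4580 and 1289 to 2029. Same-numbered samples were not treated as pairs, since in no comparison did every pair correlate above 0.1 (10 of 32 pairs did, 3 of 4 between the overexpression genotypes). In each comparison without double loss, however, replicate 1 correlated best with replicate 1 of the other genotype. Its r was 0.12 to 0.15 with wild-type and 0.35 between the overexpression genotypes. Double loss replicate 2 correlated best with replicate 1 in each of its comparisons. Any deviation shared by these samples was left in the main fits. With the replicate number as a block, *fkh* in double over *jumu* loss was −0.031 and *CHES-1-like* in double over *CHES-1-like* loss was −0.17, neither called, and *fd59A* became the 5th call between the overexpression genotypes. There the block fit called 4685 of 12233 genes, and *fd59A* was at −0.73 in the main fit, not called. It was also called with DESeq2 (−0.76), in 1 fit of all samples (−0.72) and without *jumu* overexpression replicate 4 (−1.08).

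Leaving out one sample turned the sign of some small differences, none of them called in the full fit. Over wild-type, these ranged from −0.036 to 0.071 for *slp1* and −0.18 to 0.029 for *slp2* in *CHES-1-like* loss and from −0.095 to 0.25 for *fkh* in double loss. In double over *jumu* loss they ranged from −0.23 to 0.10 for *fkh*, −0.043 to 0.11 for *slp2*, −0.13 to 0.14 for *foxo* and −0.15 to 0.16 for *fd59A*. In double over *CHES-1-like* loss they were −0.60 to 0.37 for *CHES-1-like* and −0.030 to 0.44 for *fd59A*. Between the overexpression genotypes *foxo* ranged from −0.16 to 0.078, and in the interaction *CHES-1-like* ranged from −0.18 to 0.68 and *slp2* from −0.014 to 0.21.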
